A study of Rattus norvegicus with 6 samples.

Results

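The unfolded protein response (UPR) of the endoplasmic reticulum (ER) was examined through 10 genes chosen by name, which encode chaperones, folding helpers, a transcription factor and a degradation factor of the ER. All 10 were present among the 17833 genes of the table and all 10 were tested. The data came from the pulmonary veins (PVs) of wild-type Sprague-Dawley rats, collected at postnatal day 21 from the right upper lung lobe. The BPVB group had undergone bilateral pulmonary vein banding at postnatal day 1, and the sham group had the same thoracotomy with a suture placed around the vein and removed again. There were 3 rats per group, 1 library each, and both groups were operated on under cold anesthesia. In the banding, a thread was tied around the vein and a thin spacer needle that was then withdrawn, which left a constriction of set width. The tissue was sequenced in bulk, with all cell types together. Levels are in FPKM (fragments scaled by the counted length of the gene and by the library total), as deposited by the authors.

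The ER folds proteins that are destined for secretion and for membranes. When unfolded proteins accumulate there, 3 membrane sensors, IRE1 (Ern1), PERK (Eif2ak3) and ATF6 (Atf6), are released or activated. Cleaved ATF6 and the spliced form of XBP1, which IRE1 makes, raise the transcription of ER chaperones and of the machinery that removes misfolded proteins, whereas PERK slows translation and favours the synthesis of ATF4, which in turn raises genes of amino acid supply and of the CHOP (Ddit3) axis. ATF6, with the CCAAT-binding factor NF-Y, acts on the ER stress response element (ERSE, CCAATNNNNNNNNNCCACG) and on a compact form of it (ERSE-II, ATTGGNCCACG).

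Library totals were 23439506 to 23821184 fragments in the sham group and 26078189 to 29725808 in the BPVB group. The 10 genes were covered by 304 (Sdf2l1) to 18917 (Hsp90b1) fragments per library, so counting error was small for the large chaperones and largest for Sdf2l1. A gene is said to have risen or fallen where limma on log2(FPKM + 0.5) gave an adjusted p (Benjamini-Hochberg over all 15150 genes tested) under 0.05. By that rule 31.5% of all genes changed in the BPVB group, 17.2% upward and 14.3% downward. At an unadjusted p under 0.05, 22.8% of all genes were higher and 19.2% lower, and limma-voom on the recovered fragments called 18.5% of the genes it tested higher and 15.7% lower. The counts of genes given in the text are to be read beside these shares. As the 10 genes and the lists were chosen with earlier results of these data known, a count that departs from its share is only a description.

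ER stress response elements were searched on both strands of the RefSeq promoter windows (assembly GRCr8), which run from 250 bases before to 50 bases after an annotated start of the gene. Windows were given for 9 of the 10 genes, all but Manf. An ERSE stood in 22 of all 33469 windows (0.0657%) and in those of Hspa5, Hsp90b1, Creld2 and Xbp1, and an ERSE-II stood in 17 (0.0508%), including those of Hyou1 and Herpud1. The 6 stretches are printed because they are what these genes share beyond their function. Each is written 5′ to 3′ on the strand of the gene, with the elements in capitals. Elements written from CGTGG lie in the reverse orientation.

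Hspa5, chr3:38452953-38453011, plus strand: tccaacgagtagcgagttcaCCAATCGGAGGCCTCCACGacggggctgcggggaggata
Hsp90b1, chr7:23012327-23012489, minus strand: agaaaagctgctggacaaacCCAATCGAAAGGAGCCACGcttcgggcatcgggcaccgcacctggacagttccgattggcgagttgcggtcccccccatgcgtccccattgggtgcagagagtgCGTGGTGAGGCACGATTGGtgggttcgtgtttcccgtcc
Creld2, chr7:121789219-121789277, plus strand: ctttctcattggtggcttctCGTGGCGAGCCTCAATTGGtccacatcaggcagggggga
Hyou1, chr8:53602674-53602824, plus strand: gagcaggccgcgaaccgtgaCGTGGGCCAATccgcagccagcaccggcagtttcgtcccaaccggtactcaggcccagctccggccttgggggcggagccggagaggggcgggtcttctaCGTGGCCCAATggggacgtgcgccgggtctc
Xbp1, chr14:84604538-84604596, plus strand: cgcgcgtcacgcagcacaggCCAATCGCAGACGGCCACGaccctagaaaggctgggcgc
Herpud1, chr19:10614801-10614851, minus strand: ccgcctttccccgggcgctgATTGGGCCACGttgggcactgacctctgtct

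Positions are counted from the annotated start that defines each window. For Hspa5, Hsp90b1, Pdia4, Sdf2l1, Xbp1 and the window of Hyou1 shown, this start is the outermost base of the RefSeq gene, but it lies inside the gene by 630 bases in Creld2, 5320 in Dnajb9 and 9461 in Herpud1, so their windows belong to an internal start. The first base of the element was at -43 in Hspa5 and -65 in Xbp1 and, before the internal starts, at -124 in Herpud1 and -145 in Creld2. Hsp90b1 held 2 elements, at -176 and -72, and Hyou1 also held 2, at -188 and -88. The first element of Hyou1 overlapped a UPRE (TGACGTGG), the site of XBP1, which was found in 199 windows (0.595%) and in no other of the 9. The CARE (TGATGNAA), a C/EBP and ATF4 site, stood in 1332 windows (3.98%), and among the 9 genes in that of Herpud1, at -184. The windows of Pdia4, Dnajb9 and Sdf2l1 held neither ERSE form but did hold the core CCACG, as did 10577 windows (31.6%) of all genes. These matches describe letters in a window and no binding was measured.

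**Figure D1:**
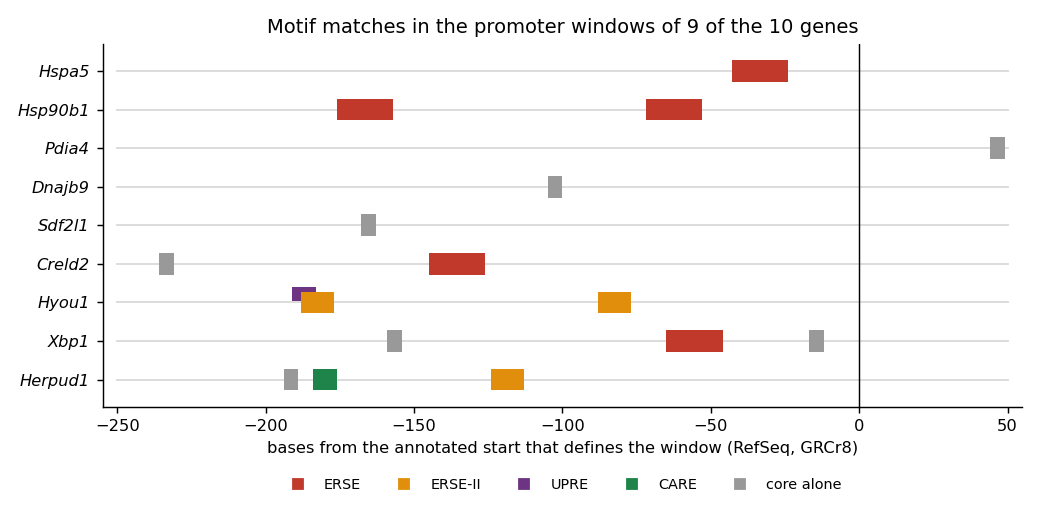
Positions of the searched motifs in the promoter windows of 9 UPR genes, in bases from the annotated start that defines each window (an internal start in Creld2, Dnajb9 and Herpud1), with 250 bases before and 50 after it. ERSE or ERSE-II elements were found in 6 of the 9 windows, and Hsp90b1 and Hyou1 held 2 each.

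Of the 10 UPR genes, 4 fell in the BPVB group (Herpud1, Hspa5, Dnajb9 and Manf), beside 14.3% of all genes, and 0 rose, beside 17.2%. At an unadjusted p under 0.05, limma gave 1 gene higher (Hsp90b1) and 6 lower, beside 22.8% and 19.2% of all genes, and limma-voom called 1 gene higher (Hsp90b1) and 4 lower after adjustment, beside 18.5% and 15.7%. Without sham library 3 the count that fell was 2 (Herpud1 and Hspa5). The fold changes were small. Their median was -0.17 on the log2 scale, beside 0.02 over all genes tested, and ran from -0.21 to -0.13 over the 16 other fits. No UPR gene passed the threshold of 1 on the absolute log2 fold change, which 3.27% of all genes passed together with the adjusted p (2.24% upward and 1.03% downward). The 3 BPVB libraries lay below all 3 sham libraries for 6 genes, above them for 1 and among them for 3, whereas of all genes 45.6% had groups without overlap, 20.5% with BPVB below and 25.2% with BPVB above.

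**Figure D2:**
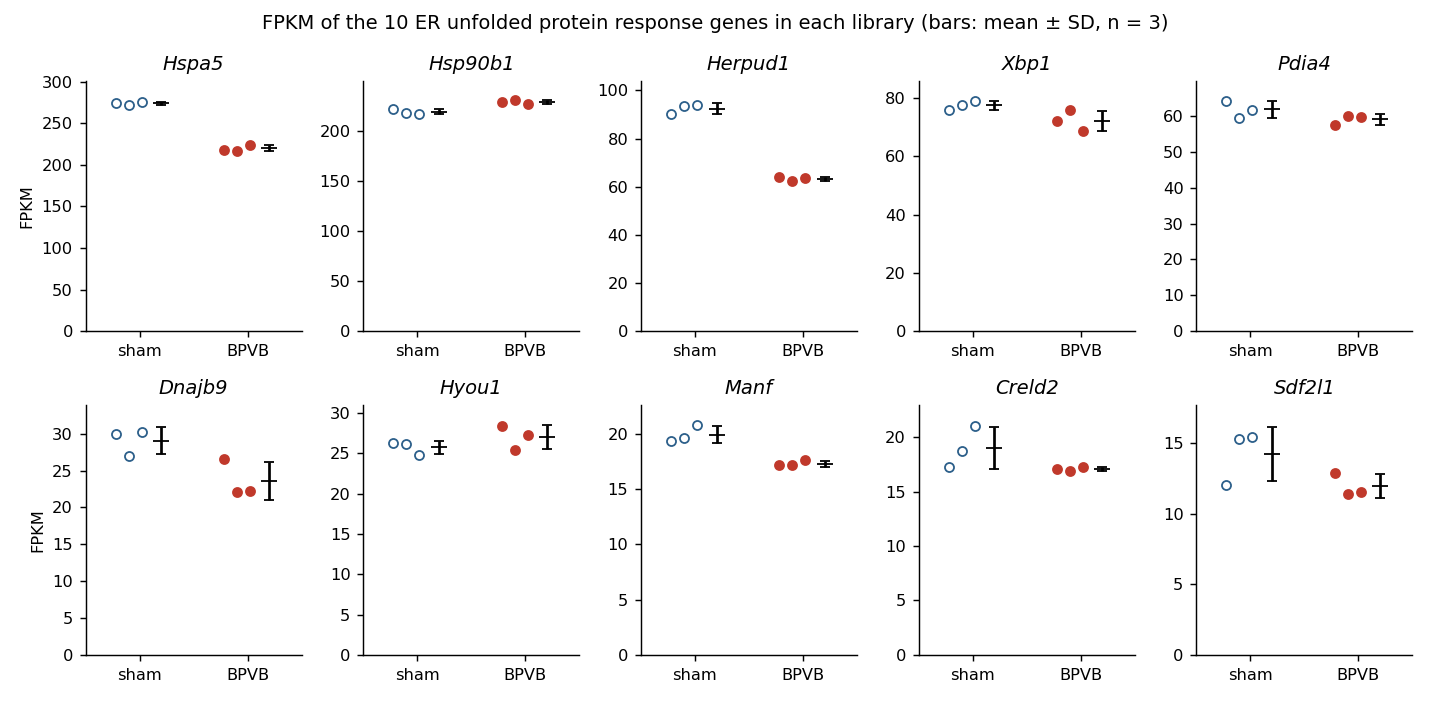
FPKM of the 10 UPR genes in each library, 1 panel per gene, with 3 sham and 3 BPVB libraries and bars for the mean ± SD. Herpud1 and Hspa5 show the widest gap between the groups, at 92.5 against 63.2 and 274 against 220 FPKM, while the libraries of Pdia4, Sdf2l1 and Hyou1 overlap.

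Hspa5 encodes BiP, the Hsp70 chaperone of the ER lumen that also holds the sensors inactive. Its FPKM was 274, 272 and 275 in the sham libraries and 218, 217 and 224 in the BPVB libraries. Each BPVB library lay below each sham library by far more than the spread within a group. The mean went from 274 ± 1.69 (SD, n = 3) to 220 ± 3.66 (SD, n = 3) FPKM, so that Hspa5 fell by 19.8% (log2 fold change -0.32, SE 0.025, 95% interval -0.37 to -0.26, adjusted p = 2.1e-05, limma). The call was kept in all 16 other fits.

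Hsp90b1 encodes GRP94, the Hsp90 chaperone of the same compartment, which folds integrins and Toll-like receptors. Its FPKM was 222, 218 and 217 in the sham libraries and 229, 231 and 227 in the BPVB libraries. The BPVB libraries were all above the sham libraries, but by little. The means were 219 ± 2.48 (SD, n = 3) and 229 ± 1.75 (SD, n = 3) FPKM, and the difference of 0.06 on the log2 scale (SE 0.024, 95% interval 0.01 to 0.12, adjusted p = 0.085) did not pass the test. With TPM in place of FPKM it did (0.09, adjusted p = 0.021), as with quantile normalization (0.16, adjusted p = 0.0014) and with limma-voom (0.06, adjusted p = 0.022).

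These chaperones of the same lumen thus changed places. Hspa5 was the most abundant of the 10 genes per length in the sham group, and Hsp90b1 in the BPVB group. The ratio of Hsp90b1 to Hspa5, which a single scaling factor per library does not alter, was 0.809, 0.803 and 0.790 in the sham libraries and 1.05, 1.06 and 1.01 in the BPVB libraries, with no library of one group within the range of the other. As Hsp90b1 was higher and Hspa5 lower in every BPVB library, the ratio could not overlap. This pair was chosen after the values were seen, as were the other ratios given here, and they are given as a description.

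Hyou1 encodes GRP170, the nucleotide exchange factor of BiP. The 3 sham libraries held 26.2, 26.1 and 24.8 FPKM and the BPVB libraries 28.4, 25.4 and 27.2. The groups overlapped, and the log2 difference of 0.07 (SE 0.053, 95% interval -0.05 to 0.19, adjusted p = 0.37) did not pass the test. Relative to Hspa5, Hyou1 stood at 0.0939 ± 0.00327 (SD, n = 3) in the sham group and 0.123 ± 0.00666 (SD, n = 3) in the BPVB group, and these ratios did not overlap. Of the 5 chaperone complex genes among the 10 (by the deposited GO annotation Hspa5, Hsp90b1, Pdia4, Sdf2l1 and Hyou1), Hspa5 was the 1 that passed the test.

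Dnajb9 encodes ERdj4, the J-domain co-chaperone that brings BiP to the luminal domain of IRE1. In the sham group it was measured at 30.0, 27.0 and 30.3 FPKM and in the BPVB group at 26.6, 22.1 and 22.2. The BPVB libraries were all below the sham libraries, although BPVB library 1 came close to sham library 2. Dnajb9 overlaps the lncRNA gene LOC120103526 in the RefSeq annotation, and without a known strand setting the reads of both could not be told apart. The log2 fold change was -0.30 (SE 0.079, 95% interval -0.48 to -0.12, adjusted p = 0.020). The spread within the BPVB group (CV 10.8%) was well above the counting error (2.45%). The adjusted p rose to 0.065 without BPVB library 2, 0.069 without BPVB library 3, 0.065 without sham library 1 and 0.068 without sham library 3. The ratio of Dnajb9 to Hspa5 was 0.106 ± 0.00611 (SD, n = 3) in the sham group and 0.108 ± 0.0124 (SD, n = 3) in the BPVB group, with overlap.

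Pdia4 encodes ERp72, a protein disulfide isomerase. Its values of 64.2, 59.4 and 61.7 FPKM in the sham group and 57.3, 60.0 and 59.7 in the BPVB group overlapped. The log2 difference was -0.06 (SE 0.040, 95% interval -0.16 to 0.03, adjusted p = 0.26), which did not pass the test.

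Sdf2l1 encodes a luminal partner of the J-domain protein ERdj3. It was the least abundant of the 10 genes in both groups. The sham libraries held 12.0, 15.3 and 15.4 FPKM and the BPVB libraries 12.9, 11.4 and 11.5, so sham library 1 lay within the range of the BPVB group. The log2 difference was -0.24 (SE 0.0998, 95% interval -0.46 to -0.01, adjusted p = 0.11). Without sham library 1 it was -0.35 and passed the test (adjusted p = 0.012), and the CV of the sham group (13.5%) exceeded the counting error (5.28%).

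Creld2 encodes a luminal, EGF-domain protein with disulfide isomerase activity, and its level was 17.3, 18.7 and 21.1 FPKM in the sham libraries and 17.1, 16.9 and 17.3 in the BPVB libraries. BPVB library 3 lay just under sham library 1, so the lack of overlap rested on a very narrow margin. The log2 difference of -0.15 (SE 0.071, 95% interval -0.31 to 0.02, adjusted p = 0.15) did not pass the test. Creld2 overlaps Alg12 in the RefSeq annotation, and the strand setting of the counting is not given in the sources used here, so reads of both genes could not be told apart.

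Manf encodes a small secreted neurotrophic factor that is held in the ER by BiP. The FPKM of Manf were 19.4, 19.6 and 20.8 in the sham group and 17.1, 17.1 and 17.6 in the BPVB group. The BPVB libraries were close to one another and all below the sham libraries. Manf fell by 13.2% (log2 fold change -0.20, SE 0.050, 95% interval -0.31 to -0.09, adjusted p = 0.015). Without sham library 3 the adjusted p was 0.057. The counted length of 6097 bases was longer than the 3207 bases of the RefSeq gene, so the counted fragments, and with them the level and the fold change of Manf, may include sequence outside that gene.

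Herpud1 encodes an ER membrane protein of ER-associated degradation (ERAD) that scaffolds the ubiquitin ligase HRD1. Its FPKM was 90.0, 93.6 and 93.8 in the sham libraries and 64.0, 62.3 and 63.5 in the BPVB libraries. The gap between the groups was the widest of the 10 genes on the log2 scale. The mean went from 92.5 ± 2.13 (SD, n = 3) to 63.2 ± 0.859 (SD, n = 3) FPKM, so that Herpud1 fell by 31.6% (log2 fold change -0.54, SE 0.032, 95% interval -0.62 to -0.47, adjusted p = 4.0e-06). The call was kept in all 16 other fits, with fold changes of -0.57 to -0.51. The ratio of Herpud1 to Hspa5 was 0.338 ± 0.00862 (SD, n = 3) in the sham group and 0.288 ± 0.00474 (SD, n = 3) in the BPVB group, without overlap. Herpud1 overlaps the protein-coding gene LOC102553339 in the RefSeq annotation, and without a known strand setting the reads of both could not be told apart.

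Xbp1 encodes the transcription factor whose mRNA IRE1 splices. Its total level was 75.9, 77.6 and 79.0 FPKM in the sham group and 72.0, 75.8 and 68.7 in the BPVB group. BPVB library 2 lay just below sham library 1. The log2 difference was -0.10 (SE 0.042, 95% interval -0.20 to -0.01, adjusted p = 0.092) and did not pass the test, but passed it with median-of-ratios scaling (adjusted p = 0.045) and without BPVB library 2 (0.036). A gene-level value does not separate spliced from unspliced Xbp1, so IRE1 activity was not measured.

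**Figure D3:**
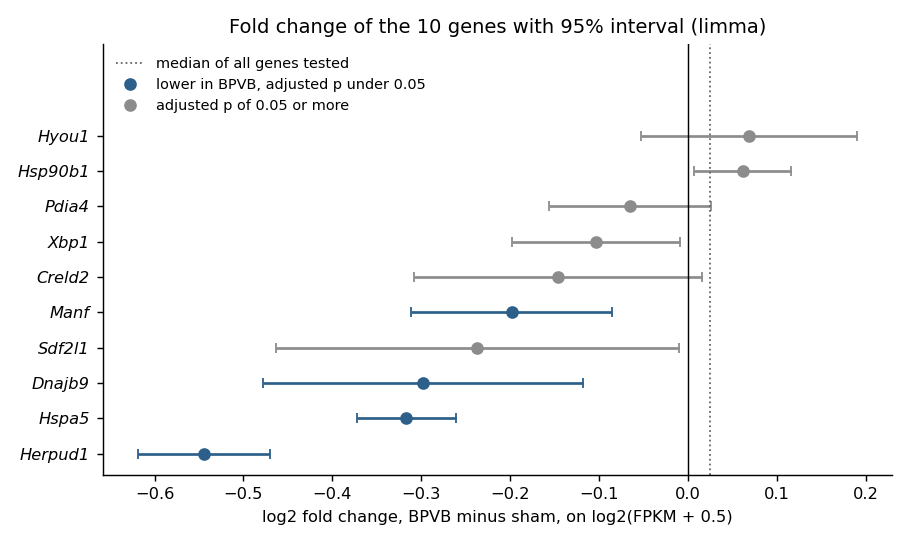
Log2 fold change (BPVB minus sham, on log2(FPKM + 0.5)) of each UPR gene with its 95% interval from limma, ordered by size, n = 3 libraries per group. The intervals of Herpud1, Hspa5, Dnajb9 and Manf are those of the 4 genes that fell, and Hsp90b1 and Hyou1 are the 2 with a value above 0.

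Summed over the 10 genes, the level was 831, 827 and 839 FPKM in the sham libraries and 742, 739 and 739 in the BPVB libraries. As a share of all fragments this was 0.214% ± 0.0014 (SD, n = 3) and 0.193% ± 0.00076 (SD, n = 3). The sum was not lower through all genes alike. The largest differences in mean FPKM were those of Hspa5 (274 against 220) and Herpud1 (92.5 against 63.2). The means of Hsp90b1 and Hyou1 were higher in the BPVB group. The order of the genes by mean level was nearly the same in both groups. Hspa5 and Hsp90b1 led, followed by Herpud1, Xbp1 and Pdia4, and then Dnajb9, Hyou1, Manf, Creld2 and Sdf2l1. Besides Hspa5 and Hsp90b1, Herpud1 and Xbp1 exchanged places without overlap of their libraries in either group, and Dnajb9 and Hyou1 exchanged places with overlap in the BPVB group. The libraries of Manf and Creld2 overlapped in both groups. In a bulk sample, fewer cells that express a gene and less RNA per cell cannot be told apart.

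Genes of the UPR outside the 10 were taken from 7 lists with 90 tested members. Together 25 rose (27.8%) and 17 fell (18.9%), with a median of 0.05, beside 17.2% and 14.3% of all genes. The branches differed in their counts, and each is given with its own values.

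The sensors and the proteases that cleave ATF6 showed small changes in either direction. Of 6 tested, 2 rose and 1 fell, beside 17.2% and 14.3% of all genes. Ern1, the IRE1 kinase and RNase, rose from 3.38 ± 0.50 (SD, n = 3) to 4.50 ± 0.25 (SD, n = 3) FPKM (log2 fold change 0.37, SE 0.113, adjusted p = 0.035). Atf6 rose from 15.2 ± 1.1 to 18.4 ± 0.67 FPKM (SD, n = 3; log2 fold change 0.27, SE 0.064, adjusted p = 0.012). Its homolog Atf6b fell from 22.3 ± 2.8 to 18.4 ± 0.24 FPKM (SD, n = 3; log2 fold change -0.26, SE 0.084, adjusted p = 0.042). The calls of Ern1 and of Atf6b were lost in 7 of 16 other fits each. For Ern1 this was so without any 1 of the libraries other than sham library 1, with an adjusted p of up to 0.11 (without sham library 3). Its call was also lost with no filter (adjusted p = 0.056) and with quantile normalization (adjusted p = 0.063). For Atf6b it was so without any 1 other than sham library 3, with an adjusted p of up to 0.13 (without sham library 1). The call of Atf6b was also lost with TPM (adjusted p = 0.066) and with no filter (adjusted p = 0.069). Eif2ak3 (PERK) had a log2 difference of -0.14 (adjusted p = 0.21). Mbtps1 and Mbtps2, the site-1 and site-2 proteases, had differences of 0.01 (adjusted p = 0.88) and 0.14 (adjusted p = 0.48), and that of Mbtps1 took either sign with the scaling.

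The PERK and ATF4 branch, as listed here with earlier results of these data known, stood mostly higher in the BPVB group. Of its 15 genes 10 rose and 0 fell, at a median of 0.33, where 17.2% of all genes rose and 14.3% fell, and at an unadjusted p under 0.05 limma gave 11 higher and 0 lower, beside 22.8% and 19.2% of all genes. Limma-voom gave the same counts of 10 and 0, beside 18.5% and 15.7%. Over all fits 9 to 10 rose. By the deposited GO annotation, 6 tested genes carry the narrower term PERK-mediated unfolded protein response. Of these, 2 rose and 1 fell, with a median of 0.007. Atf4, the transcription factor of the branch, was at 120, 125 and 125 FPKM in the sham libraries and 151, 156 and 151 in the BPVB libraries. The groups were well apart (log2 fold change 0.31, SE 0.030, adjusted p = 9.1e-05). Ddit3, which encodes the pro-apoptotic factor CHOP, was at 35.4, 33.0 and 35.6 FPKM in the sham group and 45.6, 38.7 and 42.8 in the BPVB group, and rose (log2 fold change 0.28, SE 0.062, adjusted p = 0.0085).

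Larger rises were seen for other genes of that branch. Nupr1, a stress-induced chromatin protein and ATF4 target, went from 58.3, 60.1 and 56.3 FPKM to 201, 201 and 204 (log2 fold change 1.79, SE 0.033, adjusted p = 2.8e-09). Trib3, a pseudokinase that restrains AKT and ATF4, went from 0.97, 0.45 and 1.3 to 2.2, 2.2 and 2.6 FPKM (log2 fold change 1.06, SE 0.224, adjusted p = 0.0067), on a low level where the pseudocount lowers the fold. Atf3, a stress-induced transcription factor, was measured at 4.47, 5.31 and 4.13 FPKM in the sham group and 7.01, 8.00 and 9.21 in the BPVB group (log2 fold change 0.74, SE 0.12, adjusted p = 0.0017). Ppp1r15a, the GADD34 subunit that ends the translational block, had overlapping groups and a difference of 0.04 (adjusted p = 0.67). The promoter windows of this branch held no ERSE or ERSE-II in 13 genes with a window, and a CARE in 4 of them (Chac1, Nupr1, Ppp1r15b and Trib3).

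Within each library, Atf4 and Ddit3 were set against Hspa5. The ratio of Atf4 to Hspa5 was 0.437, 0.460 and 0.454 in the sham libraries and 0.692, 0.719 and 0.675 in the BPVB libraries. The ratio of Ddit3 to Hspa5 was 0.129, 0.121 and 0.129 against 0.209, 0.178 and 0.191. Against Dnajb9, Ddit3 stood at 1.19 ± 0.0265 (SD, n = 3) in the sham group and 1.80 ± 0.115 (SD, n = 3) in the BPVB group. Each of these ratios was higher in all 3 BPVB libraries than in any sham library, which follows from the separate levels of the genes, since Atf4 and Ddit3 were higher and Hspa5 and Dnajb9 lower in every BPVB library.

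**Figure D4:**
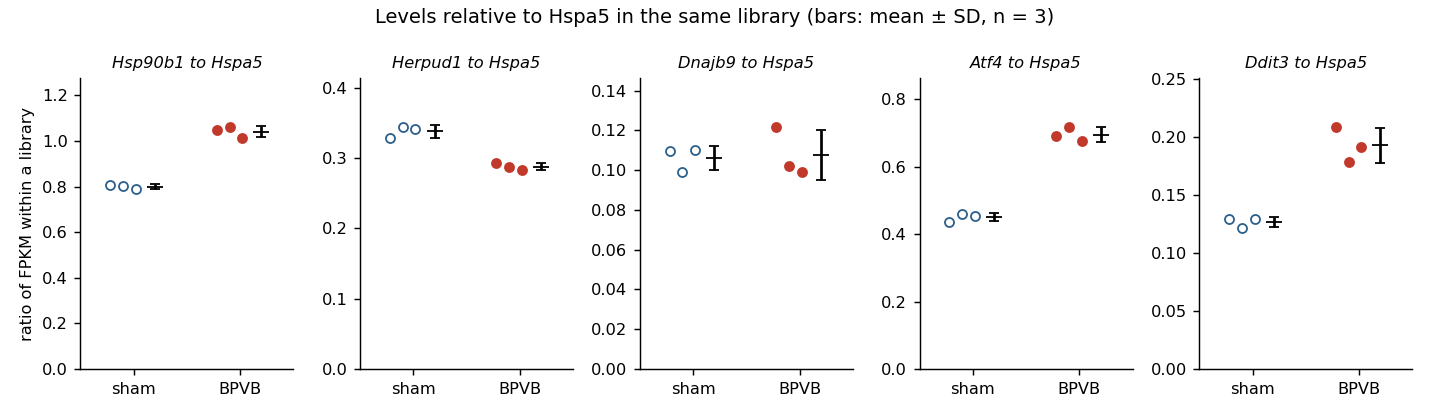
FPKM of 5 genes divided by the FPKM of Hspa5 in the same library, for 3 sham and 3 BPVB libraries, with bars for the mean ± SD. Hsp90b1, Atf4 and Ddit3 are higher against Hspa5 in all BPVB libraries, Herpud1 is lower, and Dnajb9 overlaps (0.106 and 0.108).

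Among the other ER chaperones and lectins, few genes passed the test. Of 15 genes 3 fell (Calr, Dnajc10 and Serpinh1) and 0 rose, with a median of -0.00, beside 14.3% of all genes that fell and 17.2% that rose. At an unadjusted p under 0.05 limma gave 0 higher and 4 lower, beside 22.8% and 19.2% of all genes, and limma-voom called 0 higher and 3 lower, beside 18.5% and 15.7%. Calr, the calcium-binding lectin calreticulin, was at 403, 410 and 420 FPKM in the sham libraries and 361, 375 and 360 in the BPVB libraries (log2 fold change -0.17, SE 0.027, adjusted p = 0.0014). Dnajc10, the reductase ERdj5, had a log2 fold change of -0.16 (SE 0.044, adjusted p = 0.022), which 4 of 16 other fits took to an adjusted p between 0.052 and 0.075, among them those without BPVB library 3, sham library 1 and sham library 2.

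Among 14 protein disulfide isomerases and ER oxidases, 4 rose and 3 fell, with a median of 0.07, beside 17.2% and 14.3% of all genes. Over all fits 3 to 7 rose (3 without BPVB library 1, 7 with TPM) and 2 to 3 fell. Pdia5, a protein disulfide isomerase that is known to act on ATF6, fell further than any of the 10 UPR genes. Its FPKM was 16.8, 17.5 and 19.4 in the sham libraries and 3.5, 4.4 and 5.3 in the BPVB libraries (log2 fold change -1.93, SE 0.128, adjusted p = 7.8e-06). Ero1b, an oxidase of the isomerases, fell from a low level of 2.85 ± 0.71 to 1.73 ± 0.21 FPKM (SD, n = 3; log2 fold change -0.57, SE 0.164, adjusted p = 0.028), and without any 1 library other than sham library 2 its adjusted p was between 0.0505 and 0.088. Prdx4, an ER peroxiredoxin, rose by 0.28 (SE 0.052, adjusted p = 0.0035) and Qsox1, a sulfhydryl oxidase of the Golgi and secreted space, by 0.27 (SE 0.046, adjusted p = 0.0022) on the log2 scale.

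Herpud1 apart, the calls among ERAD genes were upward. Of 18 tested, 6 rose and 0 fell by limma, with a median of 0.13, beside 17.2% and 14.3% of all genes. At an unadjusted p under 0.05 there were 7 higher and 0 lower, beside 22.8% and 19.2%, and limma-voom called 7 higher and 0 lower, beside 18.5% and 15.7%. Over all fits 4 to 7 rose and 0 fell. The count was 4 with median-of-ratios scaling and without BPVB library 1, sham library 1 or sham library 2. Edem3, a mannosidase of glycoprotein disposal, rose from 10.0 ± 0.61 to 12.4 ± 0.30 FPKM (SD, n = 3; log2 fold change 0.29, SE 0.065, adjusted p = 0.0089). Os9, a lectin that hands glycoproteins to the HRD1 ligase, rose from 28.3 ± 0.10 to 33.8 ± 0.72 FPKM (SD, n = 3; log2 fold change 0.25, SE 0.039, adjusted p = 0.0013).

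Calls among genes of protein entry and exit were mainly downward. Of 19 genes of the translocon, the signal peptidase and ER export, 10 fell and 1 rose, with a median of -0.14, beside 14.3% and 17.2% of all genes, and 7 to 11 fell over all fits (7 without sham library 3). Kdelr3, a receptor that returns escaped luminal proteins, went from 57.8, 58.0 and 60.1 FPKM to 42.3, 47.4 and 44.1 (log2 fold change -0.39, SE 0.047, adjusted p = 2.9e-04). Sec62, a translocon partner, had a log2 fold change of -0.33 (SE 0.033, adjusted p = 9.1e-05). Spcs3, a subunit of the signal peptidase, was the 1 gene that rose (0.53, SE 0.051, adjusted p = 8.2e-05). Of the OASIS-family transcription factors of the ER membrane, 2 of 3 tested rose and 0 fell, also at an unadjusted p under 0.05. Limma-voom, which tested 4 of them, called 2 higher and 0 lower. However, 0 rose without sham library 2, and 1 rose without BPVB library 1, BPVB library 2 or sham library 3. Creb3l1 had a log2 fold change of 0.36 (SE 0.104, adjusted p = 0.028, and up to 0.080 without BPVB library 2) and Creb3 of 0.24 (SE 0.064, adjusted p = 0.019, and 0.067 without sham library 2).

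**Figure D5:**
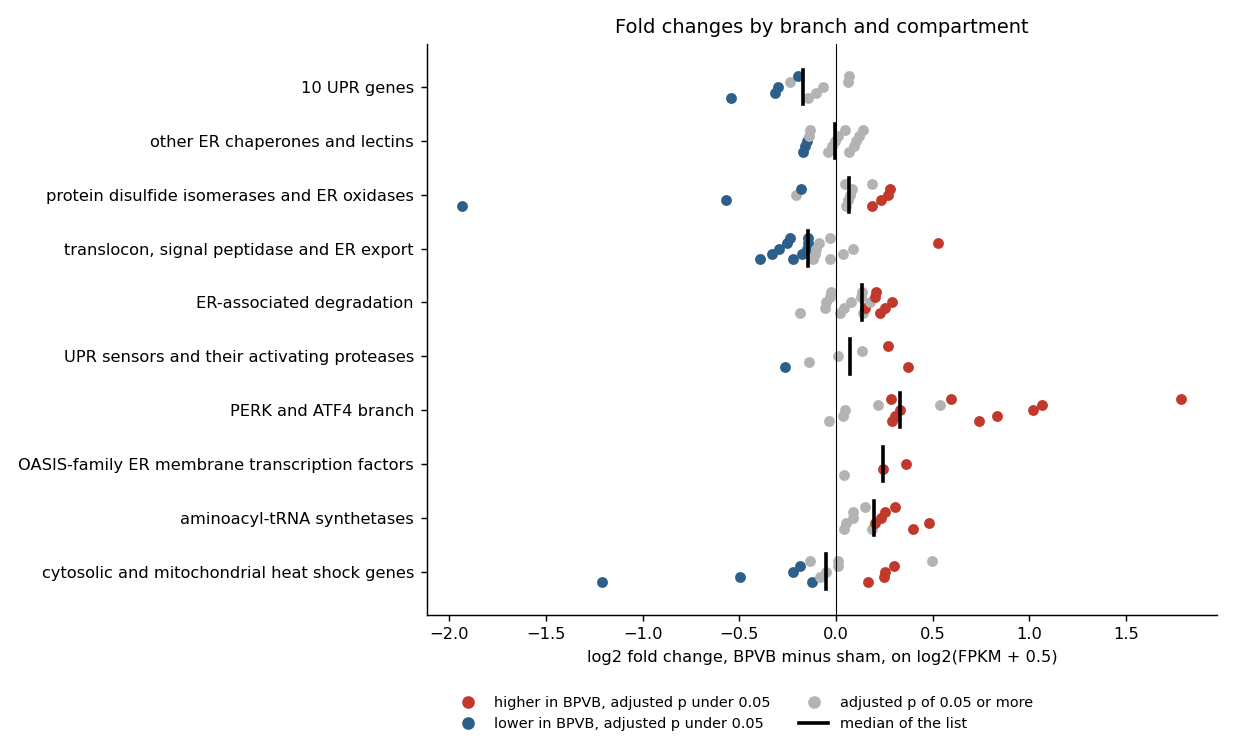
Log2 fold change (BPVB minus sham, on log2(FPKM + 0.5)) of each tested gene by list, coloured by call at an adjusted p under 0.05, with a bar at the median of each list. The 10 UPR genes have a median of -0.17, the PERK and ATF4 branch of 0.33, and Pdia5 stands at -1.93 among the disulfide isomerases.

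The promoter elements were also followed to genes outside the 10. Of the other tested genes with an ERSE or ERSE-II in their window, 21 in all, 6 rose and 4 fell, with a median of 0.13, beside 17.2% and 14.3% of all genes. Those that rose were Birc5 (log2 fold change 0.98), Prkcz (0.61), Zfp57 (0.58), Cdc27 (0.39), Rcl1 (0.36) and Nucb1 (0.25), and those that fell were Ero1b (-0.57), Ggct (-0.52), Calr (-0.17) and Hnrnpa3 (-0.13). The ER chaperone genes Canx, Dnajc3 and Dnajb11 did not pass the test (log2 differences -0.02, 0.11 and -0.14). Of the 6 UPR genes with an element, 2 fell (Hspa5 and Herpud1) and 4 did not pass the test.

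The same process was counted by the deposited GO annotation. Of 44 tested genes with the term endoplasmic reticulum unfolded protein response, 12 rose (27.3%) and 7 fell (15.9%), the latter near the 14.3% of all genes, of which 17.2% rose. Hspa5, Xbp1 and Herpud1 carry that term, and without them 12 of 41 rose and 5 fell, with a median of 0.04. Of 84 tested genes with the broader term response to endoplasmic reticulum stress, 17 rose (20.2%) and 13 fell (15.5%), near the shares of all genes. Of the 10 UPR genes, 6 carry that broader term. For the ER chaperone complex, 1 of 11 rose and 3 fell.

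Lists of related stress responses were read beside the UPR. Of 15 cytosolic and mitochondrial heat shock genes, 4 rose and 5 fell. Hspa1b, the inducible Hsp70, fell from 17.8 ± 0.38 to 7.44 ± 0.52 FPKM (SD, n = 3; log2 fold change -1.21, SE 0.066, adjusted p = 2.4e-06), with the limit that its near-identical copy Hspa1a can share its reads. Hspe1, the mitochondrial co-chaperonin, had a log2 fold change of -0.50 (SE 0.035, adjusted p = 1.2e-05), whereas Hsp90aa1, the inducible cytosolic Hsp90, rose by 0.30 (SE 0.038, adjusted p = 3.9e-04) and Bag3, an Hsp70 co-chaperone, by 0.25 (SE 0.049, adjusted p = 0.0045). Of 12 aminoacyl-tRNA synthetases, which ATF4 is known to induce, 6 rose and 0 fell, at a median of 0.19. Of all genes 17.2% rose and 14.3% fell. At an unadjusted p under 0.05 limma gave 8 synthetases higher and 0 lower, beside 22.8% and 19.2% of all genes, and limma-voom called 7 and 0, beside 18.5% and 15.7%. Sars1 and Aars1 showed the largest rises, of 0.48 (SE 0.051, adjusted p = 1.3e-04) and 0.40 (SE 0.046, adjusted p = 2.4e-04).

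Markers of other cell types also differed between the groups. The sum over 8 alveolar type 2 cell markers, led by the surfactant gene Sftpc, was 61.5 to 63.0 FPKM in the sham libraries and 552 to 598 in the BPVB libraries, and all 8 rose. The sum over 9 macrophage markers was 228 to 238 against 680 to 701 FPKM, with 8 higher. Scgb1a1, the 1 tested marker of 5 airway secretory markers in the table, also rose, and their sum was 3.18 to 5.06 against 24.05 to 28.05 FPKM. Both alveolar type 2 cells and macrophages are known to have an active ER.

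Markers of the vein wall were present in every library. Those of cardiomyocytes of the myocardial sleeve, such as Myh6, summed to 19663 to 20014 FPKM in the sham libraries and 14067 to 14434 in the BPVB libraries, with 5 of 6 lower and 1 higher. Smooth muscle markers summed to 4578 to 4646 against 4378 to 4419 FPKM (4 of 6 lower, 1 higher), endothelial markers to 1062 to 1070 against 971 to 985 FPKM (3 of 6 lower, 0 higher), and fibroblast markers to 5394 to 5438 against 6167 to 6221 FPKM (4 of 6 higher, 2 lower). The 8 plasma and B cell markers in the table, whose cells are rich in ER, overlapped at 34.3 to 38.6 against 32.01 to 35.5 FPKM (1 higher, 1 lower). Circadian clock genes, which are known to cycle with the hour of day, summed to 371 to 376 against 105 to 110 FPKM. That sum pools genes that went both ways, with 4 of 11 higher and 7 lower. No marker was at 0 in all 6 libraries. The part of cell composition and of the clock in the changes of the UPR genes was not tested.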

How the data were processed

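PVs of 3 BPVB and 3 sham rats were compared. By the study's methods the authors used fastp for trimming, HISAT for mapping and HTSeq-count for counting, and they deposited FPKM per gene. The submitters' processing notes also name HISAT2 2.0.5, StringTie 1.3.3b, featureCounts 1.5.0-p3 and DESeq2 1.20.0, with no role. The genome build and strand setting are not given in the sources used here. Fragments were recovered from whole-number ratios of the FPKM (whole for 100.0% of genes, within 1e-05 of a fragment or 1e-09 of the value), and the counted length was whole within 0.001 bases for 99.2% of genes with at least 50 fragments. Intervals cover the spread between these rats only.

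Groups were compared with limma 3.58.1 in R 4.3.3 (lmFit, eBayes with trend) on log2(FPKM + 0.5), two-sided, keeping genes whose mean FPKM reached 0.1, with Benjamini-Hochberg adjustment. Ratios of genes were chosen after the values were seen, so their exact permutation p-values are not given. The alternatives were pseudocounts of 0.1 and 1, other filters, 3 scalings, robust eBayes, limma-voom with the library totals (at least 10 fragments per gene in all), a replicate block and leaving out each library.

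The 10 genes and the lists were chosen with earlier results of these data known. Named are the 10 genes, the sensors and proteases, and in each other list the 2 largest rises and 2 largest falls that passed the test, with Atf4, Ddit3, Trib3, Ppp1r15a and Atf3 always. Serpinh1, Canx, Dnajc3, Dnajb11 and the other genes named for a promoter element were named after their values were seen. Ern2, Hspa1a, Jchain, Ighm, Bpifa1 and Marco were not analysed here, and Creb3l3 and Creb3l4 were under the filter. Cars1, Eprs1 and Gars1 were matched to older symbols by NCBI Gene number. RefSeq supplied the promoters.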

Additional observations from a re-analysis of the deposited data

How the results depend on the processing

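Herpud1, Hspa5, Atf4, Ddit3 and Nupr1 kept their direction and call in all 16 other fits. The count of UPR genes that rose was 0, and 1 (Hsp90b1) with TPM, with quantile normalization and with limma-voom. The count that fell was 4, and 5 with median-of-ratios scaling (Xbp1 added), 2 to 4 with a library left out, lowest without sham library 3, and 0 when an absolute log2 fold change above 1 was also required. With that threshold the other ER stress genes counted 3 risen and 1 fallen, in place of 25 and 17. Mbtps1 changed sign with median-of-ratios scaling (-0.015), and was between -0.0089 and 0.037 with a library left out. Ppp1r15a was between -0.013 and 0.067 with a library left out. None of these values passed the test. The cause was not tested. With the replicate number as a block, 4 UPR genes fell, as without it, and 4539 genes were called in place of 4775. Libraries with the same number hardly deviated together (correlations of 0.014 to 0.025), so the numbers were not taken to pair the rats, although each library correlated best with its own number. The other scalings moved the median of all genes to between -0.01 and 0.06. With 3 rats per group and 304 to 391 fragments, changes of Sdf2l1 were the least well resolved.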
